A study of Homo sapiens with 12 samples.

Results

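The G2/M and mitosis genes examined here are 52 listed genes whose products carry a cell from the end of DNA synthesis through mitosis, and they were taken wherever the count table held them. The table held 51 of the 52, out of 17508 genes in all, and exon and intron counts were both given for all 51. ESPL1 was not analysed here. The libraries came from TYK-nu, a cell line that the labels class as an ovarian serous adenocarcinoma of high grade, grown with 15 µM cisplatin, a platinum compound that crosslinks DNA, or with DMSO as the solvent control, and collected after 24 or 72 h. Each of the 4 groups (DMSO 24 h, cisplatin 24 h, DMSO 72 h, cisplatin 72 h) had 3 replicate libraries of poly(A) RNA, and no other treatment or genetic change is given for any of them, so that all values describe 1 cell line. The cells were grown in triplicate per the labels and the study's methods, which do not say whether the triplicates came from separate days or passages, and p-values measure the spread between these libraries. A library held between 18526830 and 68753262 exon and intron counts together, with the 2 deepest in the cisplatin 72 h group. Levels are given below in CPM, the counts of a gene scaled by TMM to a common library depth, and differences as log2 changes, where -1 is a fall to 50%. A gene was called changed when its p from edgeR's quasi-likelihood test, adjusted over all genes by the Benjamini-Hochberg method, was under 0.05.

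Entry into mitosis is driven by CDK1 bound to cyclin B, which WEE1 and PKMYT1 hold in check and CDC25 phosphatases release. Polo-like and Aurora kinases then build the spindle, the spindle checkpoint holds back the anaphase-promoting complex until every kinetochore is attached, and CDC20 lets that complex destroy cyclin B and separate the sister chromatids. Most of the genes are transcribed late in the cycle, through the MuvB complex with MYBL2 and FOXM1, so their RNA is abundant in cycling cells and low in resting ones. DNA crosslinks are known to hold cells in S phase or G2.

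The labelled cell type was checked against lists of marker genes. Of 8 markers of serous epithelium, 6 had an exon entry, and PAX8 had at most 2 counts in a library, KRT7 at most 8, and EPCAM between 0.117 and 1.68 CPM. WT1 lay between 1.59 and 4.19 CPM, KRT8 between 11.0 and 34.5 CPM and KRT18 between 133 and 181 CPM. Among 3 endothelial markers, PECAM1 lay between 1350.3 and 2491 CPM and CDH5 between 658 and 1046 CPM, while VWF lay between 0 and 1.20 CPM. By its mean level, PECAM1 ranked 37 of 17085 genes with an exon entry. Markers of fibroblasts summed to at most 0.209 CPM and markers of leukocytes to at most 1.01 CPM in any library, with LUM and PTPRC at 0 throughout. Further genes were looked up after these values had been seen. Of the endothelial genes among them, TIE1 lay between 1649 and 2571 CPM and KDR between 243 and 289 CPM, both receptors of endothelial cells. ESAM lay between 369 and 490 CPM and ROBO4 between 159 and 184 CPM, whereas CD34 and EMCN had at most 6 and 4 counts. The epithelial genes CDH1, CLDN3 and FOLR1 had 0 counts in all 12 libraries. The levels of PAX8, KRT7, EPCAM, PECAM1 and CDH5 thus went against the labelled cell type in all 12 libraries alike. The markers were mixed, since KRT18, KRT8 and WT1 had counts in every library and VWF, CD34 and EMCN were low. The values below are those of the libraries labelled TYK-nu. How these markers came to be at such levels was not tested.

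The promoters of the genes shared sequence features that the choice of genes had not used. RefSeq promoters on GRCh38.p14, each 300 bases long with 250 bases before and 50 after the start of the gene, were found for 44 of the 51 genes and numbered 56, since some genes have several starts. They were searched on both strands for the cell cycle homology region, which MuvB binds, spelled as TTTGAA or as TTCGAA. They were also searched on both strands for CCAAT, which NF-Y binds and which reads ATTGG on the other strand. Matches were allowed to overlap, as they do in the promoter of CDCA8, where the letters of both motifs share a base. The homology region's letters stood in 36 of the 56 promoters (64.3%), against 16.4% of all 35116 promoters of this length. CCAAT stood in 39 (69.6%, against 34.6%), and both motifs stood in 28 (50%, against 6.38%). The promoters of CDC20, PLK1, CCNB2 and ANLN are shown as examples with a match, and that of MYBL2 as one with neither motif, although its RNA changed the most of all 50 genes tested below (capitals mark the matched letters, and each sequence reads 5′ to 3′ along the gene).
CDC20, chr1:43358731-43359030, plus strand: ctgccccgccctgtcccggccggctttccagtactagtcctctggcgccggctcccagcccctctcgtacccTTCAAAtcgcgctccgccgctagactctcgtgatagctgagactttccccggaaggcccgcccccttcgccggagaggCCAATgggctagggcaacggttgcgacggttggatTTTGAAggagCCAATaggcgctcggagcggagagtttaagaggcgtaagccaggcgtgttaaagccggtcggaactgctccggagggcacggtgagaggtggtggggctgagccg
PLK1, chr16:23678639-23678938, plus strand: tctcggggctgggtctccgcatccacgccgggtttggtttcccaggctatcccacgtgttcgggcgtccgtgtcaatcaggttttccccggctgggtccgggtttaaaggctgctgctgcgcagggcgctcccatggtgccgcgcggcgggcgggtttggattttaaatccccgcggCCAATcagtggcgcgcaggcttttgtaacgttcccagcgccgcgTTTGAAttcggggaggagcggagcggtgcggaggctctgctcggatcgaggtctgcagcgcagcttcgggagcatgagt
CCNB2, chr15:59104896-59105195, plus strand: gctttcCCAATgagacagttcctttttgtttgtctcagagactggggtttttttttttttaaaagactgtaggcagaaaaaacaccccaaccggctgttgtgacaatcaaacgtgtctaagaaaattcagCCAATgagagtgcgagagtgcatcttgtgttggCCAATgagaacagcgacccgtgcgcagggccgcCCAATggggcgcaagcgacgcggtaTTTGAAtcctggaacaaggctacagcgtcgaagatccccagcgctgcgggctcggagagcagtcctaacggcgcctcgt
ANLN, chr7:36389612-36389911, plus strand: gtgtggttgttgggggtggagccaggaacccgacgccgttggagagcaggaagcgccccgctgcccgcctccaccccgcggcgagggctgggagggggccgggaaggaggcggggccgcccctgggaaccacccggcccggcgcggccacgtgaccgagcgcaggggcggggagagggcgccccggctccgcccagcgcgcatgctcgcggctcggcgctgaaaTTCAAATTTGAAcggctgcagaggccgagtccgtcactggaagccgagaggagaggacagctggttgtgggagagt
MYBL2, chr20:43666864-43667163, plus strand: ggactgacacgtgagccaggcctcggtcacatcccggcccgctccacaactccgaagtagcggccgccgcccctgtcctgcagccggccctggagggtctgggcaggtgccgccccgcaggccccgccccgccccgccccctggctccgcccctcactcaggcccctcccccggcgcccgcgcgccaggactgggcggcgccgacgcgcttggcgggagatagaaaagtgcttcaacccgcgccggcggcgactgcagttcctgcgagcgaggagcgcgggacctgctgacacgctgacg
In PLK1, the homology region began at position -29 and the CCAAT letters at position -73 from the RefSeq start of the gene. Gene positions given below are those of GENCODE, whose starts can differ from the RefSeq starts, as the start of PLK1 does. A match of letters is a description and does not show that a factor was bound there.

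From 24 to 72 h the genes fell together, in DMSO and in cisplatin alike. Their summed exon counts, as a share of a library's exon total without TMM scaling, were 8136, 8384 and 8699 CPM in the DMSO 24 h libraries and 8518, 8086 and 8235 CPM in the cisplatin 24 h libraries. At 72 h they were 4767, 4947 and 5007 CPM in DMSO and 5388, 4833 and 4957 CPM in cisplatin. Every 72 h library was below every 24 h library, and within each time the DMSO and cisplatin libraries overlapped. The means were 8406 ± 282 (SD, n = 3) and 4907 ± 125 CPM in DMSO, a fall of 41.6%, and 8279.5 ± 219.9 and 5059 ± 291 CPM in cisplatin, a fall of 38.9%. Since these are bulk libraries, fewer cells in G2 or mitosis and less RNA per cell cannot be told apart. The summed level of the endothelial markers moved in the same direction, from between 3355 and 3479 CPM at 24 h to between 2033 and 2307 CPM at 72 h over both treatments, while that of the serous epithelial markers overlapped between the times, from 178 to 199 CPM at 24 h and from 168 to 189 CPM at 72 h. Within that list KRT18 had means of 173 and 175 CPM at 24 h and 134 and 145 CPM at 72 h, in DMSO and cisplatin. KRT8 went the other way, with 13.1 and 12.01 CPM at 24 h and 32.4 and 32.0 CPM at 72 h, as did EPCAM, with 0.264 and 0.224 CPM at 24 h and 1.38 and 1.45 CPM at 72 h. Their part in the result was not tested.

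**Figure D1:**
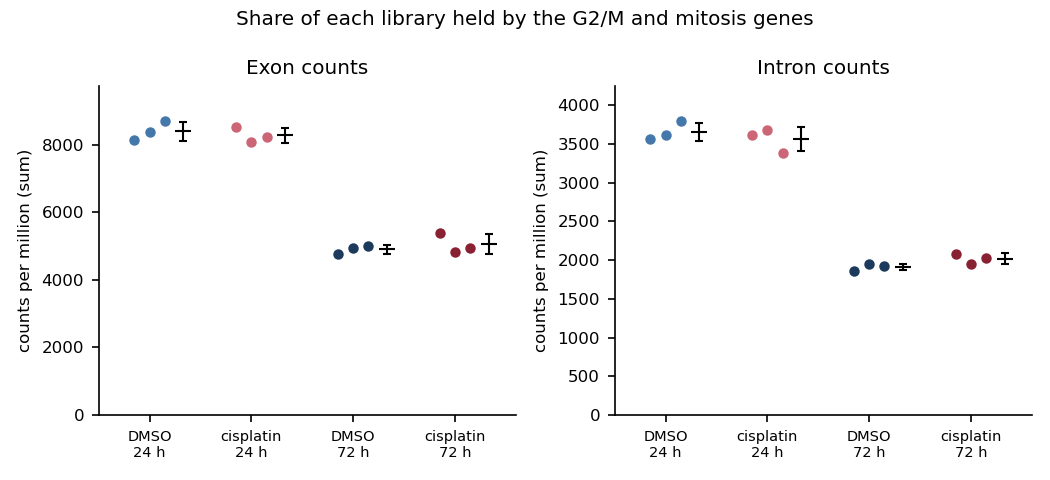
Summed exon counts (left) and intron counts (right) of the 51 genes, as CPM of the library's exon or intron total, in each of the 12 libraries. Points are libraries and bars show the mean with its SD (n = 3). All 72 h libraries lie below all 24 h libraries on both scales. DMSO and cisplatin libraries overlap within each time, except for intron counts at 72 h. There the lowest cisplatin library (1948 CPM) lies just above the highest DMSO library (1946 CPM), without TMM scaling.

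Of the 50 genes whose exon counts could be tested, 46 fell in DMSO, 0 rose and 4 did not pass the test, where 32.5% of all 10444 genes tested were called lower and 32.6% higher. In cisplatin 47 fell, 1 rose and 2 did not pass, where 31.5% of all genes were called lower and 32% higher. The median log2 change of the 50 genes was -0.73 in DMSO and -0.69 in cisplatin, and that of all genes tested was 0.01 and 0.02. The groups did not overlap, with 72 h lower, for 47 genes in DMSO and 48 in cisplatin, against 33.4% and 33.2% of all genes tested. UBE2C, the ubiquitin-conjugating enzyme of the anaphase-promoting complex, was not tested because its exon entry held 0 to 3 counts in a library while its intron entry held 87 to 250. Its exon entry, and those of BIRC5 (25 to 70 counts) and MAD2L1 (84 to 175 counts), may not cover the whole mature RNA, so levels are not compared between genes.

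**Figure D2:**
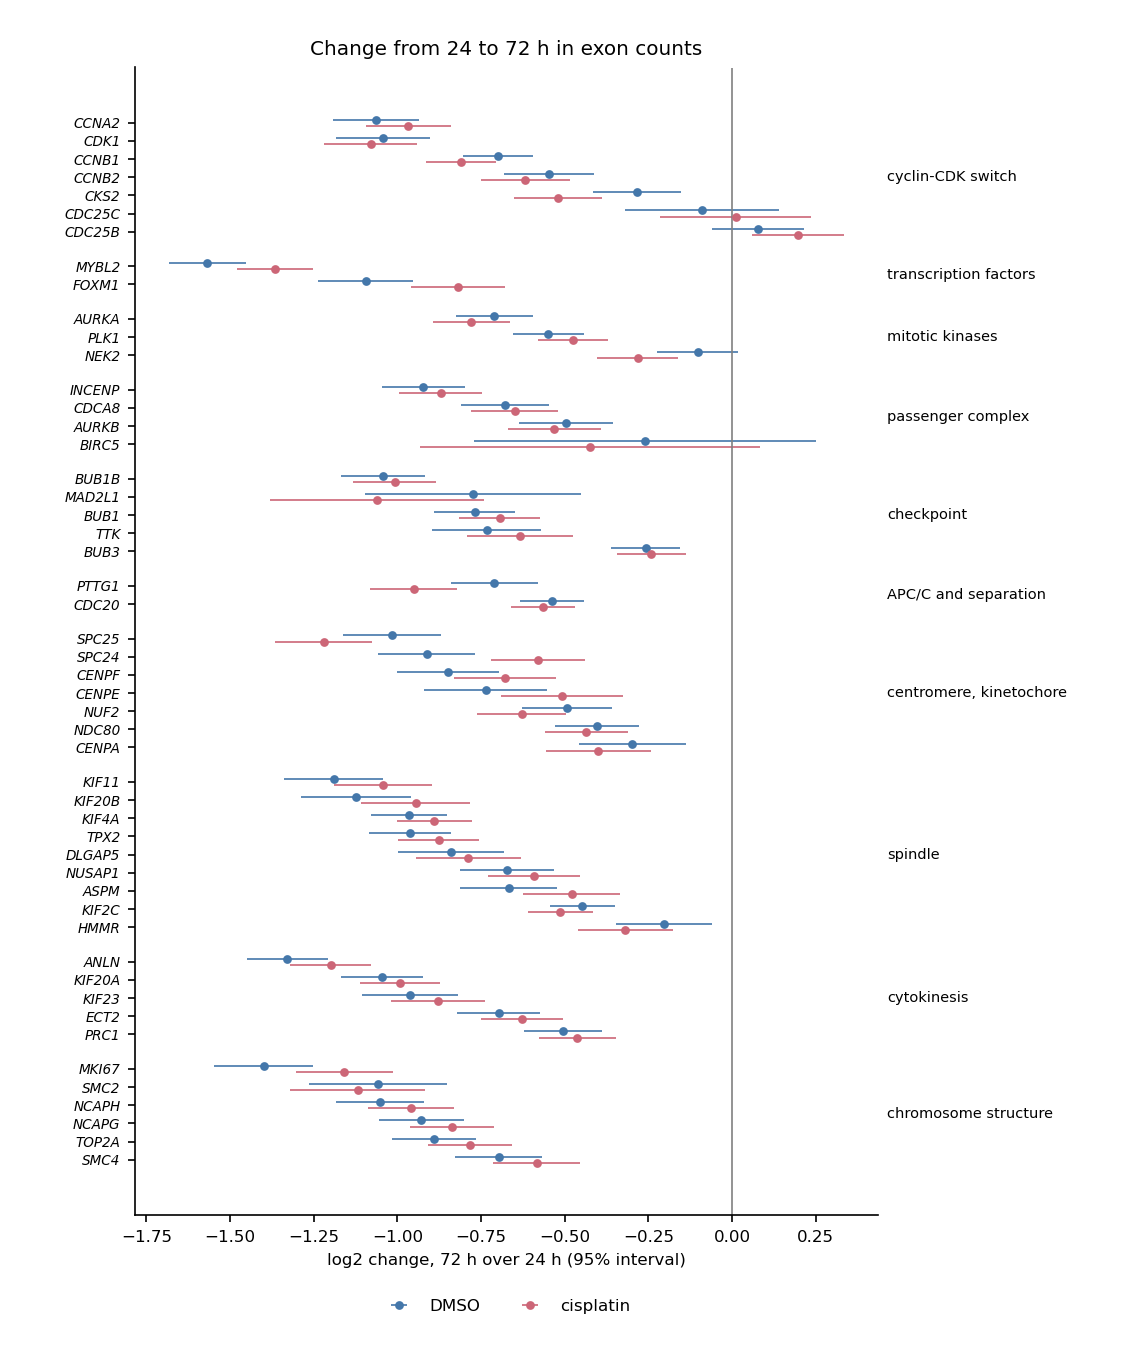
Log2 change in exon counts from 24 to 72 h in DMSO (blue) and in cisplatin (red) for the 50 genes tested, grouped by role, with 95% intervals from edgeR. Nearly all points lie left of 0, with MYBL2, MKI67 and ANLN lowest in DMSO, while CDC25B, CDC25C, NEK2 and BIRC5 lie closest to 0 or have intervals across it in DMSO.

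Of the 7 genes of the switch that starts mitosis, 5 fell in each treatment, and CDC25B and CDC25C were not called lower in either. CDK1 (chr10:60778331-60794852, plus strand), the kinase itself, stood at 142, 159 and 166 CPM in the DMSO libraries and 162, 144 and 164 CPM in the cisplatin libraries at 24 h, and 76.0, 81.0 and 69.7 CPM and 74.5, 70.8 and 77.0 CPM at 72 h. All 24 h libraries were above all 72 h libraries. The change was to 48.5% of the 24 h level in DMSO (log2 change -1.04, SE 0.068, edgeR adjusted p = 3.41e-12) and 47.3% in cisplatin (log2 change -1.08, SE 0.068, edgeR adjusted p = 1.79e-12). CCNB1 (chr5:69167135-69178245, plus strand), its cyclin B1 partner, had 287, 305 and 307 CPM in DMSO and 306, 282 and 304 CPM in cisplatin at 24 h, against 180.3, 189.6 and 183 CPM in DMSO and 176, 167 and 166 CPM in cisplatin at 72 h. Its values at 72 h were the lowest in cisplatin, below all DMSO libraries of that time. CCNB1 fell to 61.5% of the 24 h level in DMSO (log2 change -0.70, SE 0.051, edgeR adjusted p = 2.20e-11) and 57.1% in cisplatin (log2 change -0.81, SE 0.051, edgeR adjusted p = 1.82e-12). The cyclins CCNA2 and CCNB2 and the CDK1 subunit CKS2 also fell, with log2 changes of -1.06, -0.55 and -0.28 in DMSO and -0.97, -0.62 and -0.52 in cisplatin. CDC25B (chr20:3786772-3806121, plus strand), a phosphatase that activates CDK1, instead had 53.1, 54.4 and 52.2 CPM after 24 h and 54.0, 54.8 and 59.6 CPM after 72 h of DMSO, and 46.6, 56.0 and 51.4 CPM after 24 h and 59.3, 59.3 and 58.3 CPM after 72 h of cisplatin. Its DMSO groups overlapped, and its cisplatin libraries at 72 h were all above those at 24 h. The log2 change of CDC25B was 0.08 in DMSO (SE 0.067, edgeR adjusted p = 0.316) and 0.20 in cisplatin (SE 0.066, edgeR adjusted p = 0.0121), and it was the 1 gene called higher. That call rested on 1 library, since without cisplatin 24 h replicate 1 the log2 change was 0.13 and did not pass. For CDC25C, a related phosphatase, the log2 change was -0.09 in DMSO and 0.01 in cisplatin, with 95% intervals of -0.32 to 0.14 and -0.21 to 0.24.

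Both transcription factors that drive these genes fell, and MYBL2 fell the most of all. MYBL2 (chr20:43667019-43716495, plus strand), which joins the MuvB complex in S phase, had 337, 330.0 and 306 CPM in DMSO and 317, 347 and 319.8 CPM in cisplatin at 24 h, against 108, 108 and 112 CPM in DMSO and 134, 127 and 121 CPM in cisplatin at 72 h. Each 24 h library was more than 2 times as high as any 72 h library. MYBL2 thereby fell to 33.7% of the 24 h level in DMSO (log2 change -1.57, SE 0.056, edgeR adjusted p = 6.51e-17) and 38.8% in cisplatin (log2 change -1.37, SE 0.055, edgeR adjusted p = 7.45e-16). FOXM1 (chr12:2857680-2877174, minus strand), which joins the complex in G2, had 104, 95.7 and 92.7 CPM after 24 h and 45.0, 43.2 and 48.4 CPM after 72 h of DMSO, and 89.5, 101 and 88.5 CPM after 24 h and 55.5, 49.5 and 53.7 CPM after 72 h of cisplatin. Its 72 h libraries lay far under its 24 h libraries, with those in cisplatin above those in DMSO. The FOXM1 level at 72 h was 46.8% of the 24 h level in DMSO (log2 change -1.10, SE 0.069, edgeR adjusted p = 1.69e-12) and 56.7% in cisplatin (log2 change -0.82, SE 0.068, edgeR adjusted p = 2.44e-10).

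**Figure D3:**
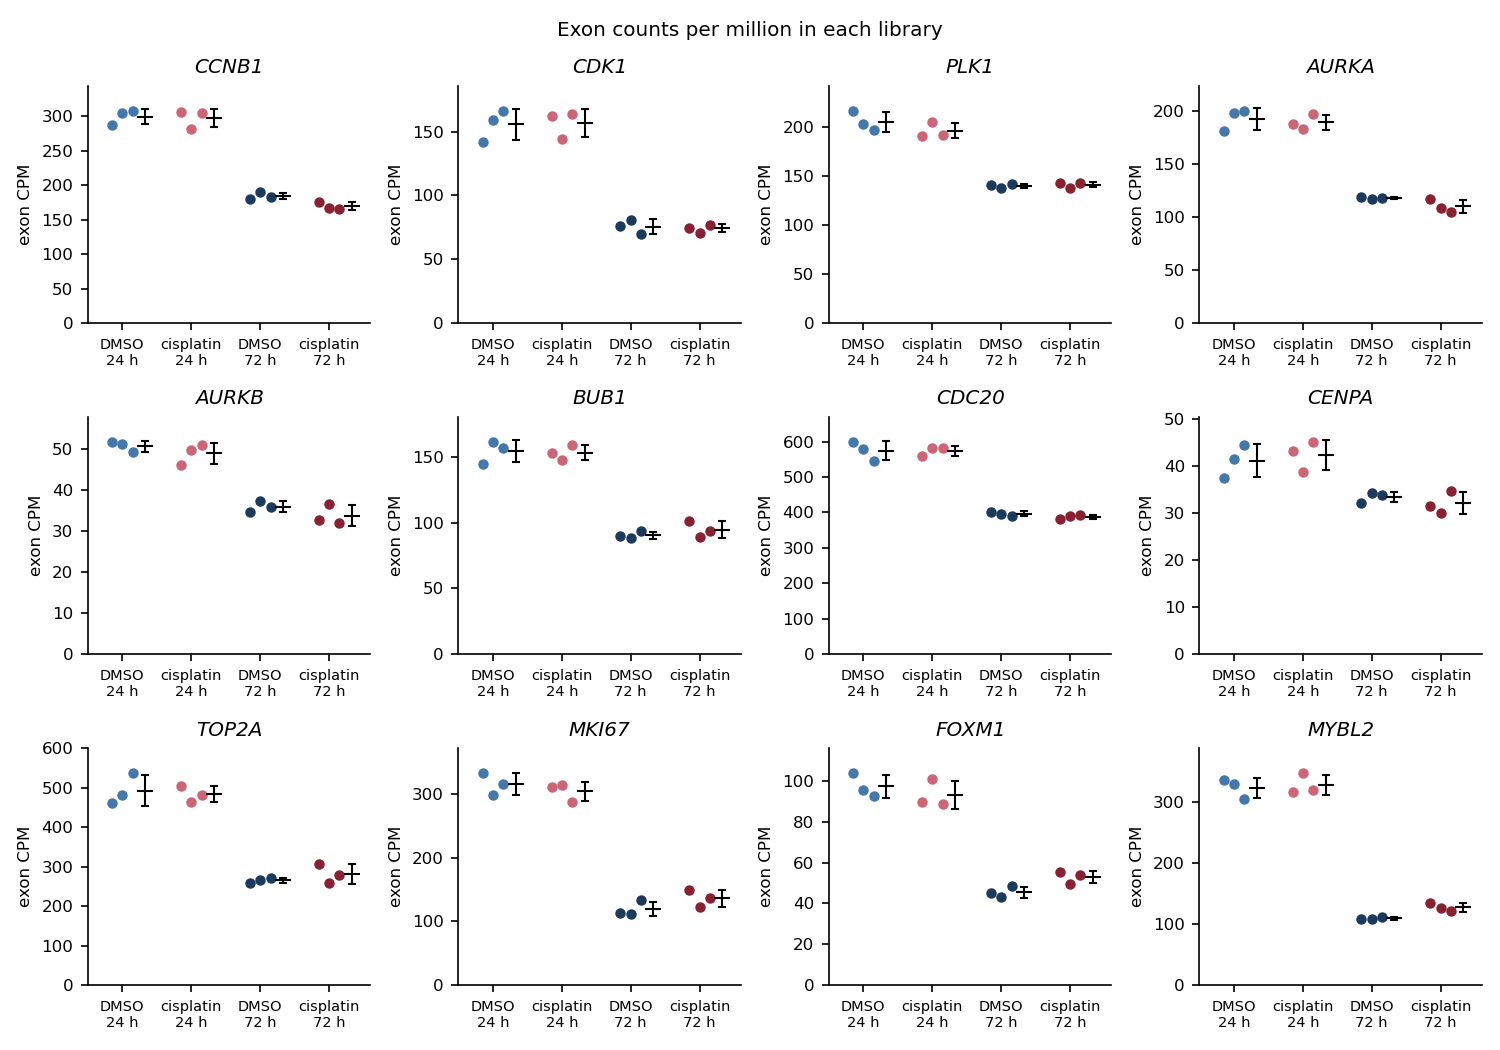
Exon CPM of 12 genes in each of the 12 libraries, on a linear axis from 0. Points are libraries and bars show the mean with its SD (n = 3). In each panel the 72 h libraries lie below the 24 h libraries, and DMSO and cisplatin overlap within a time in all panels at 24 h and in all but those of CCNB1, FOXM1 and MYBL2 at 72 h.

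Among the mitotic kinases, PLK1 and AURKA fell in both treatments, and NEK2 passed the test in cisplatin only. PLK1 (chr16:23677656-23690367, plus strand), the polo-like kinase whose promoter is shown above, had 216, 202 and 196 CPM in the DMSO libraries and 191, 205 and 192 CPM in the cisplatin libraries at 24 h, and 140.2, 138 and 142 CPM and 142, 138 and 143 CPM at 72 h. Its levels at 72 h stood close together in all 6 libraries. The test of PLK1 gave a log2 change of -0.55 (SE 0.051, edgeR adjusted p = 1.61e-09) in DMSO and -0.48 (SE 0.051, edgeR adjusted p = 1.96e-08) in cisplatin. AURKA (chr20:56369389-56392337, minus strand), the kinase of spindle poles, had 180.4, 198 and 199 CPM in DMSO and 187, 183 and 196 CPM in cisplatin at 24 h, against 118, 116 and 118 CPM in DMSO and 117, 108 and 105 CPM in cisplatin at 72 h. No 72 h library reached the lowest 24 h library. AURKA fell to 61.1% of the 24 h level in DMSO (log2 change -0.71, SE 0.055, edgeR adjusted p = 7.66e-11) and 58.3% in cisplatin (log2 change -0.78, SE 0.055, edgeR adjusted p = 1.59e-11). NEK2, a kinase of the centrosome, had 72.8, 73.8 and 78.8 CPM after 24 h and 67.1, 70.6 and 71.9 CPM after 72 h of DMSO, and 79.2, 76.8 and 82.8 CPM after 24 h and 68.4, 63.4 and 64.3 CPM after 72 h of cisplatin. In both treatments its 72 h libraries were all below its 24 h libraries, by a small margin. NEK2 had a log2 change of -0.10 (SE 0.059, edgeR adjusted p = 0.129) in DMSO and -0.28 (SE 0.058, edgeR adjusted p = 1.98e-04) in cisplatin. The difference of the 2 changes was -0.18 (SE 0.083, edgeR adjusted p = 0.523), so that NEK2 was not shown to differ between the treatments.

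The chromosomal passenger complex, which corrects faulty spindle attachments, fell in 3 of its 4 genes in each treatment. AURKB (chr17:8204733-8210600, minus strand), its kinase, had 51.5, 51.1 and 49.1 CPM in the DMSO libraries and 46.1, 49.6 and 51.0 CPM in the cisplatin libraries at 24 h, and 34.6, 37.2 and 35.8 CPM and 32.7, 36.6 and 31.8 CPM at 72 h. The lowest 24 h library stood well above the highest 72 h library. The test of AURKB gave a log2 change of -0.50 (SE 0.068, edgeR adjusted p = 8.85e-07) in DMSO and -0.53 (SE 0.067, edgeR adjusted p = 2.86e-07) in cisplatin. INCENP, the scaffold, had log2 changes of -0.92 in DMSO and -0.87 in cisplatin, and CDCA8 (borealin) of -0.68 and -0.65. BIRC5 (survivin) gave values too imprecise to place, with 95% intervals of -0.77 to 0.25 and -0.93 to 0.08.

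All 5 checkpoint genes fell in each treatment. BUB1 (chr2:110637528-110678063, minus strand), a checkpoint kinase at kinetochores, had 145, 161 and 157 CPM in DMSO and 153, 147 and 159 CPM in cisplatin at 24 h, against 89.7, 88.4 and 93.5 CPM in DMSO and 101, 88.8 and 94.0 CPM in cisplatin at 72 h. The times did not overlap. BUB1 dropped to 58.7% of the 24 h level in DMSO (log2 change -0.77, SE 0.059, edgeR adjusted p = 6.01e-11) and 61.8% in cisplatin (log2 change -0.69, SE 0.059, edgeR adjusted p = 3.57e-10). BUB1B (BubR1), which blocks CDC20, had 139, 147 and 154 CPM after 24 h and 66.3, 73.8 and 73.0 CPM after 72 h of DMSO, and 137, 138 and 145 CPM after 24 h and 74.2, 66.9 and 67.5 CPM after 72 h of cisplatin. The times stood far apart in each treatment, with a log2 change of -1.04 (SE 0.061, edgeR adjusted p = 3.81e-13) in DMSO and -1.01 (SE 0.060, edgeR adjusted p = 7.51e-13) in cisplatin. TTK, the kinase that starts the signal, changed by -0.73 and -0.63 on the log2 scale, MAD2L1 by -0.77 and -1.06, and BUB3 by -0.26 and -0.24, in DMSO and cisplatin. The smallest change of the 5 was that of BUB3.

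Of 4 listed genes of chromatid separation, 2 could be tested for exon counts, CDC20 and PTTG1, and both fell in each treatment. CDC20 (chr1:43358981-43363203, plus strand), the activator of the anaphase-promoting complex, had 598, 580.0 and 546 CPM in the DMSO libraries and 559, 581 and 582 CPM in the cisplatin libraries at 24 h, and 403, 397 and 389 CPM and 382, 389 and 392 CPM at 72 h. Its replicates lay close together and the times stood apart. In CDC20 the test gave a log2 change of -0.54 (SE 0.047, edgeR adjusted p = 4.82e-10) in DMSO and -0.57 (SE 0.047, edgeR adjusted p = 2.22e-10) in cisplatin. PTTG1 (securin), which has near-identical copies in the genome so that its counts are uncertain, had log2 changes of -0.71 in DMSO and -0.95 in cisplatin.

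All 7 centromere and kinetochore genes fell in each treatment, with CENPA among the least changed. CENPA (chr2:26764289-26801067, plus strand), the histone H3 variant that marks centromeres, had 37.5, 41.5 and 44.3 CPM in DMSO and 43.1, 38.6 and 44.9 CPM in cisplatin at 24 h, against 32.1, 34.2 and 33.7 CPM in DMSO and 31.5, 30.0 and 34.5 CPM in cisplatin at 72 h. Its 72 h values were below its 24 h values, with the closest pair only a few CPM apart. CENPA gave a log2 change of -0.30 (SE 0.077, edgeR adjusted p = 0.00167) in DMSO and -0.40 (SE 0.076, edgeR adjusted p = 7.90e-05) in cisplatin. The 4 subunits of the NDC80 complex, which binds microtubule ends, did not change by like amounts. SPC25 had 63.3, 66.0 and 70.9 CPM after 24 h and 32.5, 35.3 and 31.2 CPM after 72 h of DMSO, and 74.2, 65.3 and 73.9 CPM after 24 h and 32.1, 29.4 and 29.8 CPM after 72 h of cisplatin. Its 72 h libraries were all far under the lowest 24 h library. SPC25 showed a log2 change of -1.02 (SE 0.071, edgeR adjusted p = 1.16e-11) in DMSO and -1.22 (SE 0.070, edgeR adjusted p = 3.95e-13) in cisplatin. SPC24 had log2 changes of -0.91 and -0.58, NUF2 of -0.49 and -0.63, and NDC80 of -0.40 and -0.44, in DMSO and cisplatin. The 95% intervals of SPC25 (-1.16 to -0.87 in DMSO, -1.37 to -1.08 in cisplatin) and NDC80 (-0.53 to -0.28 and -0.56 to -0.31) did not overlap in either treatment. The large kinetochore proteins CENPE and CENPF fell by 0.74 and 0.85 on the log2 scale in DMSO and by 0.51 and 0.68 in cisplatin.

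All 9 spindle genes and all 5 cytokinesis genes fell in each treatment. Among motors of the spindle, KIF11 and KIF20B had log2 changes of -1.19 and -1.12 in DMSO, and KIF4A and KIF2C of -0.97 and -0.45. TPX2, which activates AURKA on the spindle, changed by -0.96, and HMMR, which binds TPX2, by -0.20, the smallest change of the 9. HMMR lost its call in DMSO without DMSO 24 h replicate 3, with a log2 change of -0.15 (edgeR adjusted p = 0.0758). In cisplatin the 9 changes ran from -1.04 for KIF11 to -0.32 for HMMR. ANLN (chr7:36389821-36453791, plus strand), the anillin of the cleavage furrow, had 408, 442 and 450.3 CPM in the DMSO libraries and 440.0, 416 and 425 CPM in the cisplatin libraries at 24 h, and 164, 174 and 179 CPM and 203, 173 and 183 CPM at 72 h. Each 24 h library was more than 2 times as high as any 72 h library. ANLN fell to 39.8% of the 24 h level in DMSO (log2 change -1.33, SE 0.059, edgeR adjusted p = 2.85e-15) and 43.5% in cisplatin (log2 change -1.20, SE 0.058, edgeR adjusted p = 1.75e-14). The kinesins KIF20A and KIF23, the microtubule bundler PRC1 and the cytokinesis gene ECT2 ran from -1.05 (KIF20A) to -0.51 (PRC1) in DMSO and from -0.99 to -0.46 in cisplatin.

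All 6 genes of chromosome structure fell as well. MKI67 (chr10:128096659-128126423, minus strand), the proliferation marker Ki-67 that coats mitotic chromosomes, had 332, 298 and 316 CPM in DMSO and 311, 315 and 287 CPM in cisplatin at 24 h, against 113, 112 and 133 CPM in DMSO and 149, 123 and 137 CPM in cisplatin at 72 h. All 72 h libraries stood far below the 24 h libraries. MKI67 fell to 37.9% of the 24 h level in DMSO (log2 change -1.40, SE 0.071, edgeR adjusted p = 3.39e-14) and 44.8% in cisplatin (log2 change -1.16, SE 0.070, edgeR adjusted p = 1.03e-12). TOP2A (chr17:40388525-40417896, minus strand), the topoisomerase that untangles sister chromatids, had 460.4, 481 and 536 CPM after 24 h and 259, 267 and 271 CPM after 72 h of DMSO, and 505, 464 and 481 CPM after 24 h and 307, 259 and 278 CPM after 72 h of cisplatin. Its times did not overlap, and the spread between replicates was widest in DMSO at 24 h. TOP2A reached 53.9% of the 24 h level in DMSO (log2 change -0.89, SE 0.061, edgeR adjusted p = 8.97e-12) and 58.1% in cisplatin (log2 change -0.78, SE 0.061, edgeR adjusted p = 8.87e-11). The condensin genes SMC2, NCAPH, NCAPG and SMC4 had log2 changes of -1.06, -1.05, -0.93 and -0.70 in DMSO and -1.12, -0.96, -0.84 and -0.58 in cisplatin.

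The size of the change over time ordered the genes alike in both treatments. The DMSO and cisplatin changes, which share no library, had a Pearson correlation of 0.92 and a Spearman correlation of 0.91 over the 50 genes, given as a description across genes, which are not independent replicates and share the libraries of each group. For 47 of the 50 genes the 2 changes lay within 0.25 of each other on the log2 scale. Genes with the homology region's letters in a promoter had a median log2 change of -0.77 in DMSO (33 genes), and those with a promoter without them -0.74 (11 genes).

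Whether cisplatin changed the RNA of these genes was tested at each time against DMSO, and edgeR called no gene at either. At 24 h the test called 0 of the 50 genes and 0% of all 10444 genes. At an unadjusted p under 0.05 there were 1 of the 50 genes and 2.49% of all genes. Log2 changes of cisplatin over DMSO ran from -0.13 (BIRC5) to 0.13 (PTTG1), with a median of -0.03. The 95% intervals of 44 of the 50 genes lay within 0.25 of 0 on the log2 scale, that is within 1.19-fold either way, and those of 49 within 0.5, or 1.41-fold. For CDK1 the interval was -0.13 to 0.15, for CCNB1 -0.12 to 0.09, for PLK1 -0.17 to 0.04 and for MKI67 -0.19 to 0.09. DESeq2 called 0 of the 50 genes at this time and 0% of all genes.

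At 72 h edgeR again called 0 of the 50 genes, where it called 0.0287% of all genes. DESeq2 called 1, MYBL2, where it called 0.814% of all genes, and edgeR with a filter of 1 count in 1 library called 2, MYBL2 and SPC24, where 1.17% of all genes were called. At an unadjusted p under 0.05 there were 8 of the 50 genes, against 12.6% of all genes tested. MYBL2, SPC24, FOXM1, MKI67 and CENPF were higher in cisplatin and CKS2, CCNB1 and MAD2L1 lower among these 8, with log2 changes from -0.36 (MAD2L1) to 0.28 (SPC24). SPC24 had 25.8, 27.9 and 26.8 CPM in DMSO and 32.3, 33.3 and 32.1 CPM in cisplatin at 72 h. Its groups did not overlap, and edgeR gave a log2 change of 0.28 (SE 0.069, 95% interval 0.13 to 0.42, adjusted p = 0.151). MYBL2, whose values are given above, also did not overlap and had a log2 change of 0.22 (SE 0.055, edgeR adjusted p = 0.151). MAD2L1 had 3.61, 3.56 and 2.92 CPM in DMSO and 2.49, 2.54 and 2.82 CPM in cisplatin, a log2 change of -0.36 (SE 0.16, edgeR adjusted p = 0.364). The groups did not overlap for 4 genes higher in cisplatin, where this held for 8.85% of all genes, and for 3 genes lower, where it held for 9.3%. The 95% intervals of 38 genes lay within 0.25 of 0 and those of 48 within 0.5. None of the 50 genes passed the edgeR test of whether the cisplatin effect at 72 h differed from that at 24 h, where 0% of all genes were called and the smallest edgeR adjusted p among the 50 was 0.454, with 7 of them at an unadjusted p under 0.05, against 9.43% of all genes (SPC24, difference 0.33, SE 0.10).

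**Figure D4:**
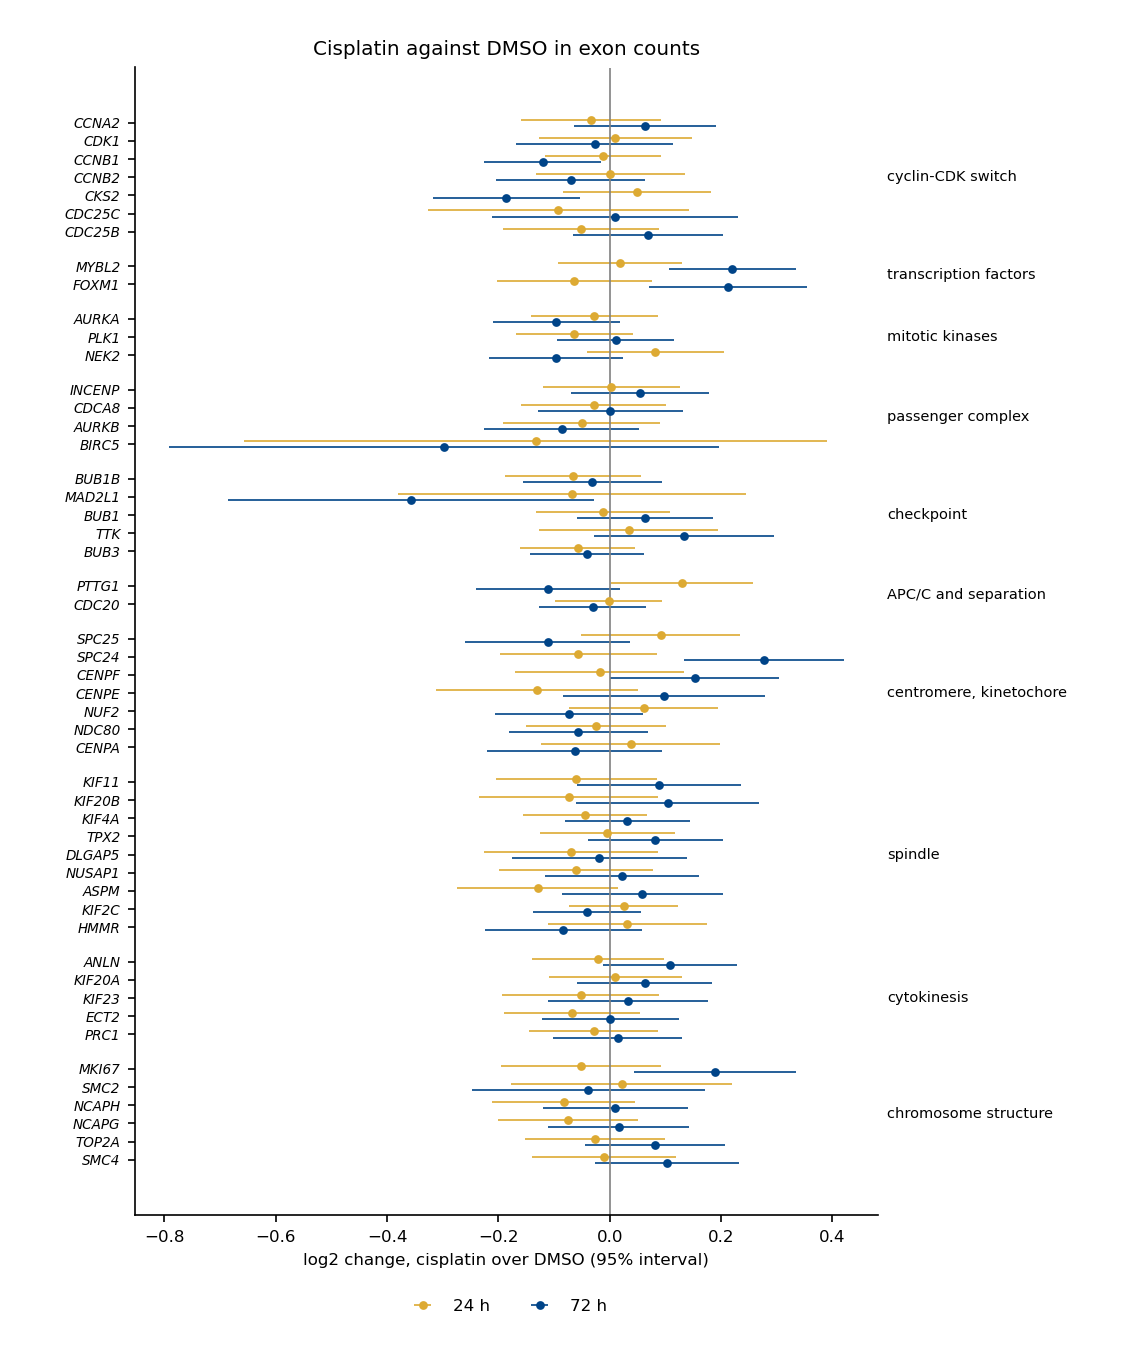
Log2 change in exon counts of cisplatin over DMSO at 24 h (yellow) and 72 h (dark blue) for the 50 genes tested, grouped by role, with unadjusted 95% intervals from edgeR. Most intervals cross 0 and lie within 0.25 of it, and those of BIRC5 and MAD2L1, which have few counts, are the widest.

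Intron counts, which come from RNA that still holds introns, also fell over time. The summed intron counts of the 51 genes were 3562, 3609 and 3791 CPM of the intron total in DMSO and 3611, 3679 and 3386 in cisplatin at 24 h, and 1865, 1946 and 1919 in DMSO and 2084, 1948 and 2027 in cisplatin at 72 h. The times did not overlap, and the means fell by 47.7% in DMSO and by 43.2% in cisplatin. At 72 h the cisplatin libraries were all above the DMSO libraries, but the closest pair stood at 1948 and 1946 CPM. These sums were not scaled by TMM, whose intron factors at 72 h were 0.933 to 0.953 in DMSO and 0.963 to 0.991 in cisplatin. In DMSO 39 of the 51 genes were called lower and 0 higher, where 16.2% of all 9618 genes tested were lower and 17.2% higher. In cisplatin 36 were lower and 0 higher, where 15.4% were lower and 16.4% higher. Median log2 changes were -0.79 and -0.78, with -0.01 and -0.02 for all genes. The exon and intron changes of the genes had a Pearson correlation over 50 genes of 0.48 in DMSO and 0.58 in cisplatin, given as a description, since both come from the same libraries. They lay within 0.25 of each other on the log2 scale for 25 genes in DMSO and 27 in cisplatin, and differed by at most 1.02 and 1.03. Scaled by library totals in place of TMM, the median of all genes moved to -0.15 and -0.12 and that of the 51 genes to -0.93 and -0.88, with 43 and 40 of the 51 genes called lower, where this scaling called 24.2% and 21.4% of all genes lower and 12.3% and 12.2% higher. Intron counts of a gene were low, between 2 and 865 in a library, so these values are less precise than those of exons. MYBL2 had 223, 218 and 159 intron counts in DMSO at 24 h and 43, 40 and 89 at 72 h, and 158, 334 and 115 in cisplatin at 24 h and 112, 127 and 67 at 72 h. Scaled to depth, these were 118, 111 and 113 CPM after 24 h and 25.3, 22.1 and 30.6 CPM after 72 h of DMSO, and 90.4, 121 and 95.1 CPM after 24 h and 33.5, 27.3 and 30.0 CPM after 72 h of cisplatin. They fell most of all 51 genes in DMSO, with a log2 change of -2.11 (SE 0.17, edgeR adjusted p = 1.19e-15) in DMSO and -1.77 (SE 0.16, edgeR adjusted p = 6.21e-14) in cisplatin. FOXM1 had 77.3, 67.2 and 75.8 CPM in DMSO and 66.4, 81.1 and 64.5 CPM in cisplatin at 24 h, against 28.2, 21.0 and 28.8 CPM in DMSO and 41.9, 28.8 and 30.5 CPM in cisplatin at 72 h of introns. The times stood apart, with a log2 change of -1.48 (SE 0.18, edgeR adjusted p = 2.37e-09) in DMSO and -1.08 (SE 0.17, edgeR adjusted p = 6.64e-07) in cisplatin. For CDK1 the intron level was 257, 266 and 251 CPM in the DMSO libraries and 288, 253 and 265 CPM in the cisplatin libraries at 24 h, and 112, 143 and 118 CPM and 115, 111 and 136 CPM at 72 h. Here too no 72 h library reached a 24 h library, and the changes were -1.06 and -1.17, next to -1.04 and -1.08 for its exons. NCAPH had 54.0, 83.0 and 84.3 CPM after 24 h and 27.6, 23.7 and 34.7 CPM after 72 h of DMSO, and 76.7, 77.8 and 56.2 CPM after 24 h and 34.4, 34.6 and 41.2 CPM after 72 h of cisplatin of introns. The times did not overlap in either treatment. Its log2 changes were -1.33 (SE 0.19, edgeR adjusted p = 6.20e-08) and -0.97 (SE 0.17, edgeR adjusted p = 1.01e-05). BUB1B had 32.8, 44.8 and 39.0 CPM in DMSO and 49.2, 36.6 and 56.2 CPM in cisplatin at 24 h, against 24.1, 21.0 and 19.9 CPM in DMSO and 16.8, 16.8 and 17.9 CPM in cisplatin at 72 h of introns. The lowest 24 h library stood above the highest 72 h library. Its log2 change was -1.43 (SE 0.21) in cisplatin and -0.86 (SE 0.22) in DMSO, and the difference of -0.58 did not pass the test (edgeR adjusted p = 0.889). UBE2C, whose exon entry was nearly empty, had 63.0, 89.6 and 92.8 CPM in the DMSO libraries and 101, 90.5 and 71.9 CPM in the cisplatin libraries at 24 h, and 52.3, 49.1 and 46.0 CPM and 49.4, 43.3 and 55.1 CPM at 72 h of introns, with a log2 change of -0.74 (SE 0.16, edgeR adjusted p = 2.97e-04) in DMSO and -0.86 (SE 0.15, edgeR adjusted p = 1.21e-05) in cisplatin. For cisplatin against DMSO, the intron counts of 0 of the 51 genes were called at 24 h, where 0.0208% of all genes were called, and of 0 at 72 h, where 0.0416% were. At an unadjusted p under 0.05 there were 1 and 2 of the 51 genes, against 5% and 6.46% of all genes. DESeq2 called 0 at both times, where it called 0% and 0.0312% of all genes.

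The exon/intron ratio asks whether mature and intron-holding RNA changed by unequal amounts, and it moved for few of the genes. By edgeR, with 50 genes tested, 4 rose and 1 fell from 24 to 72 h in DMSO, where 8.09% of all 9380 genes rose and 3.37% fell. In cisplatin 2 rose and 0 fell, where 8.36% rose and 3.56% fell. These shares lay near or below the background. Median log2 changes of the ratio were 0.13 and 0.15 for the 50 genes and 0.10 and 0.11 for all genes. NEK2 had 9.54, 9.16 and 8.81 exon counts per intron count after 24 h and 16.4, 16.6 and 15.3 exon counts per intron count after 72 h of DMSO, and 8.83, 10.4 and 11.5 exon counts per intron count after 24 h and 11.2, 14.5 and 10.7 exon counts per intron count after 72 h of cisplatin. Its ratio rose in DMSO, where the times did not overlap (log2 change 0.80, SE 0.15, edgeR adjusted p = 8.54e-04), and did not pass in cisplatin (0.25, SE 0.15, edgeR adjusted p = 0.274). NDC80 had a ratio of 25.5, 24.3 and 18.7 at 24 h and 37.4, 40.0 and 35.6 at 72 h in DMSO, BUB1 of 24.7, 19.9 and 23.9 and 34.8, 30.3 and 36.6, and MYBL2 of 39.3, 43.4 and 35.7 and 63.5, 71.2 and 52.5. All 3 were higher at 72 h without overlap, with log2 changes of 0.72, 0.59 and 0.61. In ASPM the ratio was 61.3, 85.6 and 100.2 at 24 h and 39.3, 55.9 and 52.5 at 72 h in DMSO, a log2 change of -0.69 (SE 0.21, edgeR adjusted p = 0.0329). In cisplatin, AURKB went from 4.60, 3.84 and 5.08 to 6.80, 6.72 and 7.25 (log2 change 0.64, SE 0.15, edgeR adjusted p = 0.00400). MYBL2 went from 45.9, 35.5 and 47.6 to 56.3, 64.0 and 53.8 (log2 change 0.48, SE 0.15, edgeR adjusted p = 0.0389). The calls of NEK2 and AURKB held without any 1 library. NDC80 lost its call without DMSO 24 h replicate 3 (0.59) or DMSO 72 h replicate 2 (0.68). MYBL2 lost it in DMSO without DMSO 24 h replicate 3 (0.54) or DMSO 72 h replicate 1 or 2 (0.58 and 0.52). BUB1 lost it without DMSO 24 h replicate 2 (0.48) or DMSO 72 h replicate 1 or 3 (0.57 and 0.52). ASPM lost it without DMSO 24 h replicate 2 or 3 (-0.63 and -0.56) or DMSO 72 h replicate 1 or 3 (-0.55 and -0.76). In cisplatin MYBL2 lost it without 24 h replicate 2 (0.32) or any 1 of the 72 h replicates (0.40 to 0.52). For cisplatin against DMSO, edgeR called the ratio of 0 of the 50 genes at 24 h, where 0% of all genes were called and 3 of the 50 had an unadjusted p under 0.05, against 6.33% of all genes. At 72 h it called 0, where 0.0213% were called and 4 of the 50 had an unadjusted p under 0.05, against 6.24% of all genes.

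**Figure D5:**
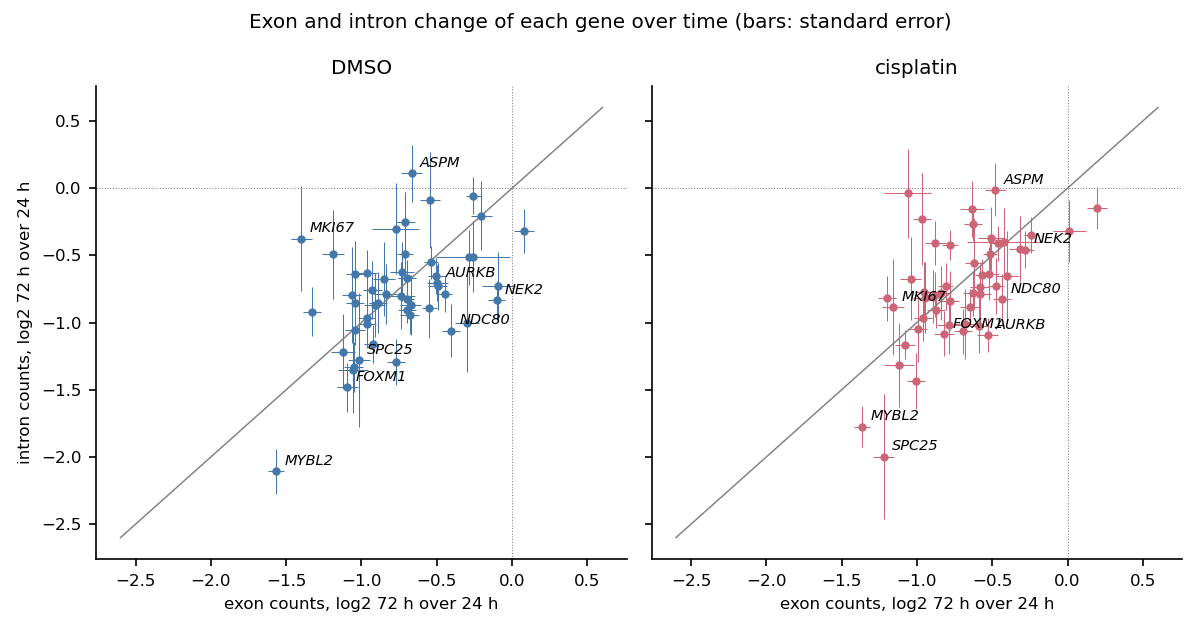
Log2 change from 24 to 72 h in exon counts (horizontal) and in intron counts (vertical) of the 50 genes, in DMSO (left) and cisplatin (right), with standard errors as bars. The line marks equal change. Most genes lie to the lower left of 0 on both axes, MYBL2 farthest in DMSO, and the vertical bars are longer than the horizontal ones.

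The logistic regression that the study's methods name, which takes the reads of a group's libraries as independent, called more ratios. For cisplatin against DMSO at 24 h it called 3 genes lower (ASPM, NUSAP1 and AURKB) and 0 higher, where 10.7% of all genes were called lower and 0.765% higher. At 72 h it called 3 lower (AURKA, KIF2C and NEK2) and 1 higher (KIF20A), where 9.7% and 1.73% of all genes were called. From 24 to 72 h it called 16 higher and 5 lower in DMSO, where 22.5% and 11.1% of all genes were called, and 17 higher and 8 lower in cisplatin, where 29% and 11.6% were. A quasi-binomial fit, in which the spread between libraries sets the error, called 0 and 0 genes for cisplatin, where it called 0% of all genes at both times, and 1 and 0 for time, where it called 0.657% and 0.988%.

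Other genes of the pathway behaved alike over time. Of 64 further mitosis genes, 55 could be tested for exon counts, and 50 fell and 0 rose in DMSO while 48 fell and 1 rose in cisplatin, where 32.5% and 31.5% of all genes were called lower and 32.6% and 32% higher, with medians of -0.72 and -0.64 on the log2 scale. WEE1 and PKMYT1, the kinases that restrain CDK1, were among them, with log2 changes of -0.83 and -0.83 in DMSO and -0.76 and -0.86 in cisplatin, and CDC25A, which activates CDK1 and CDK2, had -2.09 and -1.92. FZR1, the activator of the anaphase-promoting complex in G1, had 0.17 in DMSO and 0.28 in cisplatin and was the gene called higher in cisplatin. DNA replication genes, which act before mitosis, fell in all 28 of 28 tested in each treatment, against the same shares of all genes, with medians of -1.30 and -1.10. Among 3 genes tested of a p53 and G2 arrest list of 6, SFN fell (-1.44 and -1.35) and CCNG1 rose (0.28 and 0.43), while BTG2 had -0.25 and -0.11 and was not called, which is 1 gene called in each direction of 3, against the same shares. For cisplatin against DMSO, edgeR called 0 genes of these 3 lists at 24 and at 72 h, where 0% and 0.0287% of all genes were called. At 72 h, 12 of the 28 replication genes had an unadjusted p under 0.05, against 12.6% of all genes tested, and for 14 of the 28 the cisplatin libraries were all above the DMSO libraries, against 8.85% of all genes, with a median log2 change of 0.14.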

How the data were processed

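The deposited table holds whole-number counts of fragments per gene and library, separately for exons and introns, not normalized and not pooled. Per the labels and the study's methods, the authors used FastQC 0.11.8 and Trim Galore 0.6.0 on the reads, aligned them to GRCh38 with HISAT2 2.1.0 and counted them with HTSeq on Ensembl 98 annotation (exons: intersection-strict; introns: union). The strand option is not given in the sources used here, so overlapping, antisense and near-identical genes are uncertain.

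Exon and intron counts were each tested on all 12 libraries in 1 fit with edgeR 4.0.16 (filterByExpr, TMM, glmQLFit, glmQLFTest) in R 4.3.3, with Benjamini-Hochberg adjustment over all genes tested. For the exon/intron ratio, both counts entered 1 fit with a term for each library, and a gene was kept where 3 or more libraries had 10 or more counts of each kind. Logistic regression (Wald test) followed the study and needed at least 1 count of each kind in every library compared. DESeq2 1.42.0 was an alternative. Descriptions used Python 3.11.15, numpy 2.4.6, pandas 2.3.3, scipy 1.17.1 and matplotlib 3.10.9. The edgeR tests, the logistic regression and DESeq2 (exon counts) were first run on simulated data with known changes, for the DMSO time comparison only. The quasi-binomial fit and the cisplatin comparisons were not simulated. Symbols and gene positions came from GENCODE 44.

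The genes and lists were chosen with earlier results of these data known. Values in every library are given for 12 fixed genes and, for each measure and comparison, for up to 3 genes with the largest rise and 3 with the largest fall among those called with non-overlapping groups and a mean of at least 50 counts. Values by library are also given for SPC24 and MAD2L1 at 72 h (exon) and for UBE2C (intron), which this rule did not name. Of the genes at an unadjusted p under 0.05 for cisplatin at 72 h, SPC24 and MAD2L1 had the highest and lowest log2 changes. The exon entry of UBE2C was nearly empty. Other genes are given by counts and log2 changes.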

Additional observations from a re-analysis of the deposited data

How the results depend on the processing

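The fall of exon counts over time held under RLE size factors, library totals, a filter of 1 count in 1 library, the replicate block, DESeq2 and a fit to the 6 libraries compared, each of which called 46 genes lower in DMSO, and 47 lower and 1 higher in cisplatin. Leaving out 1 library gave 45 to 46 lower in DMSO and 47 lower and 0 to 1 higher in cisplatin, a median log2 change of -0.80 to -0.70 in DMSO and -0.76 to -0.66 in cisplatin, and 33 to 36 genes for intron counts in each treatment. For cisplatin at 72 h, the filter of 1 count in 1 library called 2 genes (SPC24, log2 change 0.28, and MYBL2; 1.17% of all genes) and DESeq2 called 1 (0.814%); the cause was not tested. Without the 10 most counted genes in the total, the share held by the genes was 8818 and 8682 CPM at 24 h and 5212 and 5363 CPM at 72 h, in DMSO and cisplatin, since the total is then smaller. The edgeR ratio called 2 to 5 genes in DMSO and 1 to 4 in cisplatin over time when 1 library was left out, fewest in DMSO without DMSO 24 h replicate 3 or DMSO 72 h replicate 1 (2 each) or DMSO 72 h replicate 2 (3), and in cisplatin 4 without 24 h replicate 1 and 1 without 72 h replicate 1 or 2. The logistic regression then called 1 to 8 genes for cisplatin at 24 h (1 without DMSO 24 h replicate 2, 8 without cisplatin 24 h replicate 3) and 3 to 6 at 72 h. Over time it then called 15 to 20 in DMSO and 11 to 26 in cisplatin (11 without 24 h replicate 2). With no library left out, the quasi-binomial model called 0, 0, 1 and 0 in the same order of comparisons. Replicate numbers were not taken as pairing the libraries, because deviations of same-numbered libraries from their group means had correlations between -0.11 and 0.10 across genes. With the replicate block, the cisplatin time comparison of the ratio called 1 gene in place of 2 (MYBL2, log2 change 0.48, did not pass), cisplatin at 72 h called 0 genes higher and 4 lower by logistic regression, and intron counts called 37 genes over time in DMSO. Among the called log2 changes of the genes, 1 changed sign in the alternatives run, the CDC20 ratio over time in cisplatin by logistic regression (0.16), which was -0.000845 without cisplatin 24 h replicate 2. Intron counts of 2 to 865 per gene and library limit the ratio: the 95% interval of its cisplatin change lay within 0.5 of 0 for 25 genes at 24 h and for 17 at 72 h.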
